A study of Mus musculus with 6 samples.

Results

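The genes described here are 60 genes of nucleolar ribosome biogenesis and RNA polymerase I transcription. They were chosen by gene symbol, from a list of proteins that act on ribosomal RNA (rRNA) or on the nucleolus, and all 60 were found among the 20312 rows of the deposited table. These genes and the other gene lists below were chosen with earlier results of these data known. RNA had been sequenced from mouse intestine at 5 months of age, strain 129. The knockout group was 3 libraries of genotype Apc min/+;Sirt7KO, in which the Apc min allele was combined with loss of both copies of Sirt7. The control group was 3 libraries of genotype APC min/+. All 6 libraries therefore carried the Apc min allele, a truncated copy of the Wnt pathway inhibitor Apc that gives rise to intestinal adenomas. The labels do not give the gut segment, the share of adenoma in the tissue, the sex, the Sirt7 allele, or whether each library came from its own animal, and the p-values below therefore cover the spread among these libraries alone, part of which may be technical.

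RNA polymerase I (Pol I) transcribes the rRNA precursor in the nucleolus. The factor Ubtf and the promoter complex SL1, which holds Taf1a to Taf1d with Tbp, mark the promoter, and Rrn3 brings the polymerase to it. The precursor is modified by box C/D particles, which methylate ribose, and by box H/ACA particles, which make pseudouridine. It is then cut, folded and loaded with ribosomal proteins by the small subunit processome and by a separate set of large subunit factors. In the intestine this production is known to be most active in the dividing cells of the crypts, and the transcription factor Myc is known to drive it. Sirt7 is a nucleolar deacylase. Work in human cells placed it on active rRNA genes with Ubtf and named the Pol I subunit encoded by Polr1e, fibrillarin (Fbl) and the box C/D protein encoded by Rrp9 among its substrates.

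Values are reads divided by 1 size factor per library, as deposited, here called normalised reads. Library depth ranged from 24987313 to 27661396 recovered reads in knockout and from 28123962 to 29603348 in control. Normalised reads summed over all rows were 24910000 to 25380000 in knockout and 29820000 to 30180000 in control. Sirt7 itself stood at 240.4, 224 and 219 in knockout libraries and 2157, 2118 and 2244 in control libraries, so that 10.5% of the control level remained. All 6 intestinal epithelial markers listed were present in every library, with summed levels of 149000 to 149500 normalised reads in knockout and 205300 to 210800 in control. Groups were compared with limma on log2(value + 1) over the 16600 genes that reached a value of 10 in 3 or more libraries. Fold changes are knockout over control on that scale, with their SE. A gene passed at a Benjamini-Hochberg adjusted p under 0.05. The genotypes differed widely: 62.5% of all tested genes passed in either direction. Of the 6 epithelial markers, 4 fell, 1 rose and 1 did not pass, with a median log2 fold change of -0.205.

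Of the 60 genes, 57 rose in knockout intestine, 0 fell and 3 did not pass in limma. Over all tested genes 31.6% rose and 30.9% fell. The median log2 fold change of the 60 genes was 0.73, beside 0.0097 over all tested genes, and 11 of the 60 lay above 1 (2-fold), beside 9.99% of all tested genes. All 60 had passed the filter, and their lowest value in any library was 108.8 normalised reads. Summed over the 60 genes, knockout libraries held 75810 to 76900 normalised reads and control libraries 45480 to 45810. The ratio of group means ran from 1.01 for Polr1d to 2.65 for Rrp1b. For 57 genes the 3 knockout values lay above all 3 control values, beside 33.5% of all tested genes. The edgeR quasi-likelihood test and DESeq2, each on recovered reads, called 57 and 56 of the 60 higher, with 32.4% and 30.0% of all tested genes called higher, and 0 of the 60 lower. According to the authors' deposited table, 56 of the 60 were higher at an adjusted p under 0.05 and 0 were lower, beside 24.9% of its rows higher. With 3 libraries against 3, an exact two-sided permutation test of a single gene cannot go below p = 0.1, the value it gave for Npm1 and Sirt7.

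**Figure D1:**
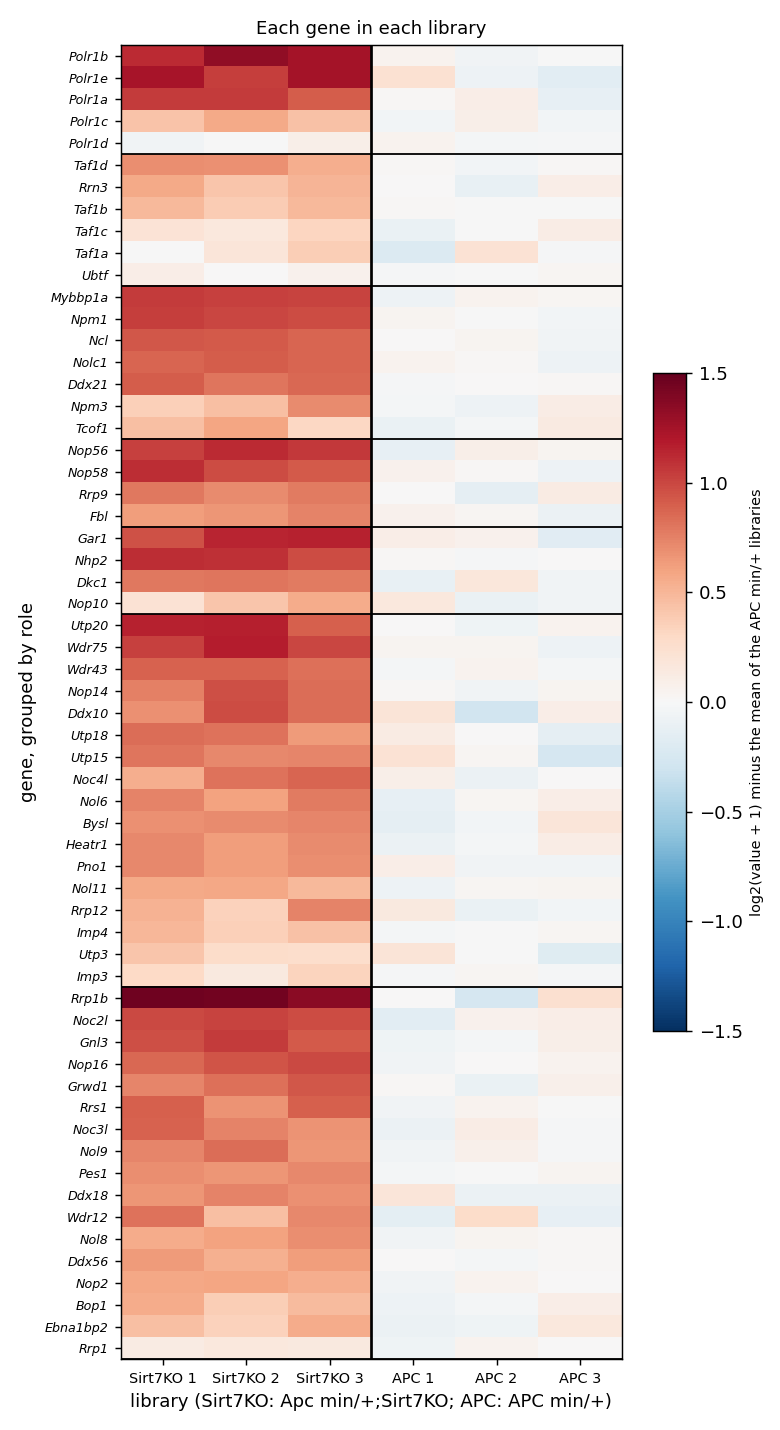
Level of each of the 60 genes (rows, grouped by role, largest fold change first) in each of the 6 libraries (columns, knockout left), as log2(value + 1) minus the mean of the 3 APC min/+ libraries. The knockout columns are red almost throughout, with the palest rows at Polr1d, Ubtf, Taf1a and Rrp1.

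The 3 knockout libraries resembled each other. Relative to the control mean, the median of the 60 genes was 0.73, 0.71 and 0.73 on the log2 scale in the 3 knockout libraries, and -0.0029, -0.0058 and 0.0024 in the 3 control libraries. In knockout libraries 1, 2 and 3, 58, 57 and 60 of the genes exceeded every control value. In control libraries 1, 2 and 3, 20, 17 and 23 of the genes exceeded every other control value. These control counts add up to 60 by construction, so they are no baseline for the knockout counts. The matching share of all tested genes was not computed for single libraries. With all 3 knockout libraries above every control value, it was 33.5% of all tested genes, beside 57 of the 60 genes. The median coefficient of variation within a group was 5.06% in knockout and 5.73% in control. Per kilobase of annotated exon, the most abundant of the 60 transcripts was Npm1, at 3872 normalised reads in knockout and 1930.0 in control, followed in knockout by Ncl at 1123, against 599 in control. Wdr12 was the lowest on that scale in both groups, at 31.1 in knockout and 19.7 in control. That length counts every exon base annotated for a gene (11.955 kb for Wdr12), so the order depends on the annotation. Not scaled by length, Wdr12 averaged 372 in knockout and 235 in control, above Taf1b in knockout (206) and Polr1e in control (122).

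Markers of several cell types moved in the same libraries as the 60 genes. In bulk tissue, more cells of a type and more RNA per cell cannot be told apart. All 7 proliferation markers rose (median 1.05), with summed levels of 13830 to 14840 normalised reads in knockout and 6344 to 7057 in control. Mki67 and Top2a rose by 0.93 and 1.23. All 6 crypt stem cell markers rose (median 2.26, summed 10140 to 11200 in knockout and 3428 to 3565 in control), Lgr5 among them at 1826 ± 112 in knockout and 90.5 ± 12.9 in control. All 5 fibroblast markers rose (median 0.89, summed 13440 to 14280 in knockout and 7429 to 7675 in control). The 6 pancreatic acinar markers all rose, with summed levels of 2988 to 3590 in knockout and 244.7 to 272.9 in control. The 6 gastric pit and gland markers all rose too (summed 21260 to 22800 in knockout and 18.2 to 23.2 in control). Lipf was at 0 in all 3 control libraries. All 8 enterocyte markers fell (median -0.85, summed 594600 to 616300 in knockout and 1274000 to 1297000 in control). All 6 B cell and all 6 T and NK cell markers fell (medians -3.88 and -1.66, summed 446.6 to 626.7 and 958.1 to 1139 in knockout, against 4838 to 5512 and 3251 to 3494 in control). Of 4 macrophage markers 3 fell (summed 4177 to 4308 in knockout and 7512 to 7819 in control). Of 5 smooth muscle markers 3 fell and 1 rose (31240 to 33640 in knockout and 40700 to 43060 in control), and of 4 endothelial markers 3 rose and 1 fell (2511 to 2680 in knockout and 2046 to 2189 in control). Their part in the higher level of the 60 genes was not tested.

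Among the Pol I subunits in the 60 genes, Polr1a, Polr1b and Polr1e, which only Pol I uses, had log2 fold changes of 1.00 to 1.23. Polr1c and Polr1d, shared with RNA polymerase III (Pol III), had 0.48 and 0.012. Outside the 60 genes, the Pol I subunit genes Cd3eap, Twistnb and Znrd1 had 1.25, 0.37 and -0.31. Polr1a encodes the largest subunit, which forms the active site together with the product of Polr1b. Polr1a stood at 955, 953 and 867 normalised reads in knockout libraries, against 468, 494 and 425 in controls (log2 fold change 1.00 ± 0.079, limma adjusted p = 1.39e-10). Polr1b, on chromosome 2 (129100995 to 129126594, plus strand, GRCm38), stood at 655, 757 and 715 in knockout libraries and 313, 291 and 300.1 in controls (1.23 ± 0.088, limma adjusted p = 2.64e-11). Neither gene had overlapping groups. Polr1e encodes a Pol I-specific subunit, the one described as a Sirt7 substrate. It stood at 285, 250.1 and 288 in knockout libraries and 142, 114 and 109 in controls, where it had the fewest reads of the 60 genes (1.17 ± 0.14, limma adjusted p = 1.43e-07). Its partner in the polymerase, encoded by Cd3eap, averaged 199 ± 27.0 in knockout and 84.5 ± 23.2 in control (SD, n = 3 each; log2 fold change 1.25 ± 0.19, limma adjusted p = 6.03e-06).

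Polr1c and Polr1d encode a heterodimer common to Pol I and Pol III. Polr1c rose to 650.2, 717 and 660.1 in knockout libraries, against 469.7, 514 and 471 in controls (0.48 ± 0.08, limma adjusted p = 1.66e-05). Polr1d stood at 1304, 1339 and 1436 in knockout libraries and 1398, 1319.9 and 1326 in controls, and the groups overlapped. Its log2 fold change was 0.012 ± 0.058, with a 95% interval of -0.10 to 0.13, and it did not pass (limma adjusted p = 0.873). Of the subunits outside the 60 genes, Twistnb, whose product forms part of the stalk that Rrn3 contacts, rose by 0.37. That call was lost under quantile normalization (log2 fold change 0.21, limma adjusted p = 0.063). Znrd1, which encodes a small Pol I subunit linked to transcript cleavage, was the only one of the Pol I genes listed to fall in limma: it stood at 427, 481 and 466 in knockout libraries and 597, 528 and 583 in controls (-0.31 ± 0.085, limma adjusted p = 0.00287). Among the 5 subunits that all 3 nuclear polymerases share, Polr2f, Polr2e and Polr2l passed as higher (log2 fold changes 0.59, 0.25 and 0.51), and Polr2h and Polr2k did not pass (0.051 and 0.25). Polr2e and Polr2l did not pass under quantile normalization (limma adjusted p = 0.051 and 0.15), and Polr2h then had a log2 fold change of -0.091. Polr2k passed without the first control library (0.35, limma adjusted p = 0.038).

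**Figure D2:**
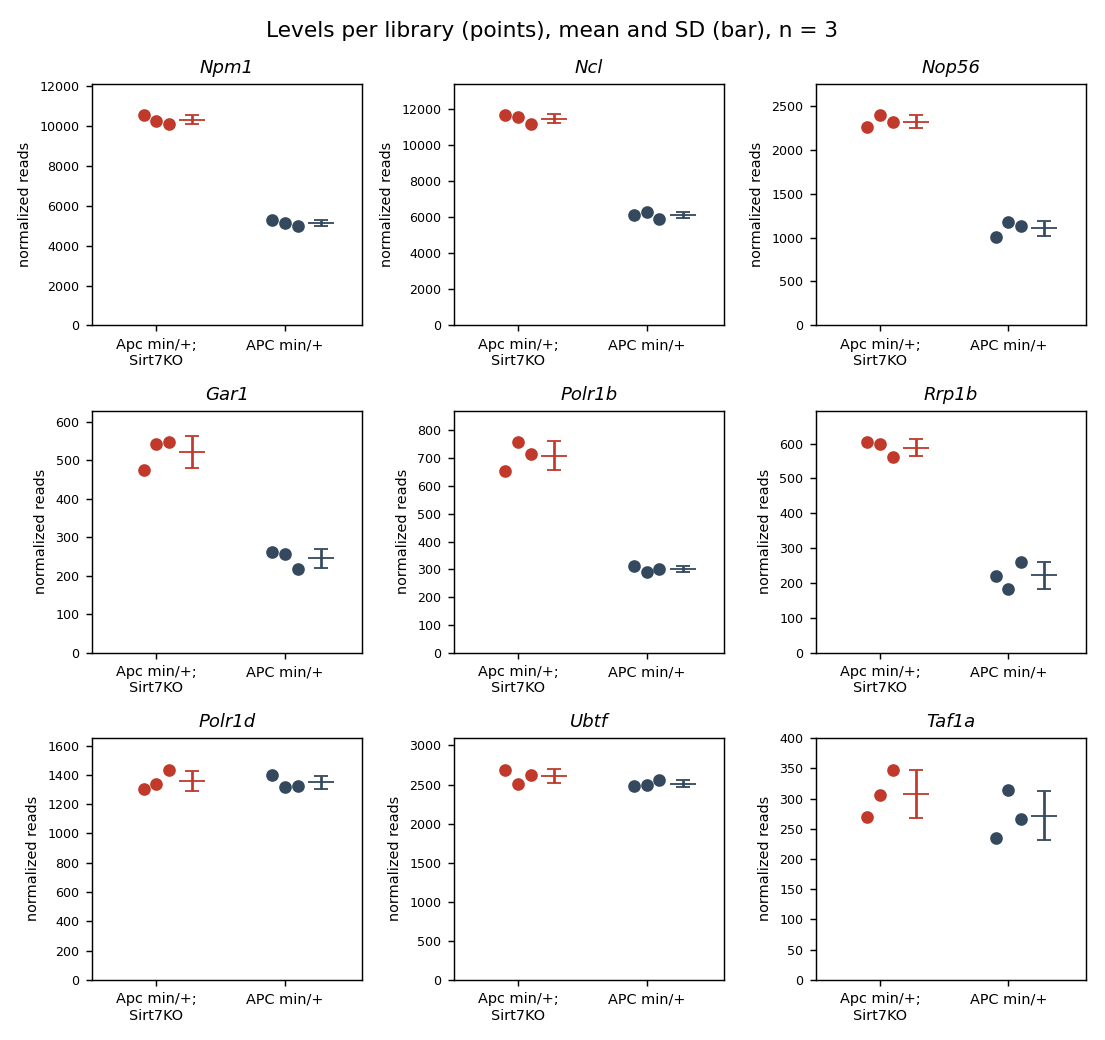
Normalised reads per library (points) with mean and SD (n = 3 per genotype) for 9 of the 60 genes, knockout left and control right, each axis starting at 0. Groups lie apart for Npm1, Ncl, Nop56, Gar1, Polr1b and Rrp1b and overlap for Polr1d, Ubtf and Taf1a, the genes that did not pass in limma.

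The initiation factors had the lowest median of the 7 roles, with 4 of 6 higher and a median log2 fold change of 0.34. Ubtf, the factor that coats active rRNA genes, stood at 2692, 2513 and 2622 in knockout libraries and 2476, 2499.7 and 2561 in controls. The groups overlapped (log2 fold change 0.054 ± 0.047, 95% interval -0.039 to 0.15, limma adjusted p = 0.332), although under quantile normalization Ubtf passed as higher (0.15, limma adjusted p = 0.0096). Rrn3 rose to 864, 780.5 and 829 in knockout libraries, against 587, 541 and 624 in controls (0.50 ± 0.076, limma adjusted p = 5.37e-06). The lowest knockout value of Rrn3 lay above the highest control value.

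The 4 SL1 genes spread widely. Taf1d rose most, to 1229, 1213 and 1106 in knockout libraries, against 768, 737 and 762 in controls (0.64 ± 0.065, limma adjusted p = 1.04e-08), and Taf1b rose by 0.45 (limma adjusted p = 0.00449). The rise of Taf1b did not pass under quantile normalization (0.26, limma adjusted p = 0.086). Taf1c stood at 412, 398 and 449 in knockout libraries and 334, 356 and 386 in controls and passed narrowly (0.23 ± 0.096, limma adjusted p = 0.044), a call that DESeq2 on recovered reads (adjusted p = 0.071) and the authors' deposited table (adjusted p = 0.0843) did not give. It was also lost without control library 1 or 2 or knockout library 1 or 3 (limma adjusted p = 0.15, 0.087, 0.066 and 0.17), with no filter (0.052) and under quantile normalization (0.57). Taf1c shares 16.7% of its exon length with Dnaaf1 on the opposite strand, so with no strand setting stated, reads in that stretch cannot be assigned to either gene. Taf1a did not pass, with 269, 306 and 348 in knockout libraries and 234, 314 and 267 in controls (log2 fold change 0.18 ± 0.12, 95% interval -0.063 to 0.42, limma adjusted p = 0.213), and under quantile normalization its log2 fold change was -0.001. Tbp, the shared member of SL1, and Ttf1, the factor that ends Pol I transcription, did not pass either (-0.013 and -0.06, limma adjusted p = 0.9 and 0.514).

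The nucleolar scaffold and chaperone genes all rose, 7 of 7, with a median of 0.88. Npm1 encodes nucleophosmin, a histone and ribosome chaperone that shuttles to the cytoplasm, and lies on chromosome 11 (33152287 to 33163206, minus strand, GRCm38). It stood at 10553, 10280.5 and 10120.4 normalised reads in knockout libraries and 5284, 5139 and 5009 in controls (1.00 ± 0.04, limma adjusted p = 7.51e-16). Ncl encodes nucleolin, which binds the nascent precursor, and stood at 11635, 11532 and 11171 in knockout libraries and 6137, 6269 and 5904 in controls (0.91 ± 0.039, limma adjusted p = 3.77e-15). Npm1 and Ncl together held 28.5% of the normalised reads of all 60 genes in knockout and 24.7% in control. Mybbp1a, a nucleolar protein found with Sirt7 in human cells, averaged 2888 ± 45.0 in knockout and 1417 ± 65.2 in control (1.03 ± 0.051). Nolc1, a phosphoprotein that binds the modification particles, and the RNA helicase gene Ddx21 rose by 0.88 and 0.86. Smaller rises were seen for Npm3, a relative of Npm1, and for Tcof1, whose product treacle links Pol I to early processing (0.51 and 0.45, limma adjusted p = 7.63e-05 and 9.00e-05).

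The protein genes of the RNA-guided modification particles all rose. All 4 box C/D genes passed, with a median of 0.88. Nop56 and Nop58 are the paired scaffold proteins of the particle. Nop56 stood at 2251, 2391 and 2310.2 in knockout libraries and 1011, 1173 and 1134 in controls (1.07 ± 0.059). Nop58 stood at 1968, 1801 and 1731 in knockout libraries and 954, 923 and 871 in controls (1.00 ± 0.062), and neither gene had overlapping groups. The methyltransferase gene Fbl rose to 401, 409 and 434 in knockout libraries, against 270.5, 264 and 244 in controls (0.68 ± 0.10, limma adjusted p = 3.30e-06). Rrp9, whose product joins a processing particle of the box C/D class, rose by 0.76 ± 0.10. All 4 box H/ACA genes passed too, with a median of 0.93. Gar1 stood at 474, 543 and 547 in knockout libraries and 262, 255 and 218 in controls (1.09 ± 0.10, limma adjusted p = 3.98e-09), and Nhp2 stood at 928, 923 and 852 in knockout libraries and 435, 427 and 431 in controls (1.06 ± 0.075). Dkc1, which encodes the pseudouridine synthase and is mutated in human dyskeratosis congenita, rose by 0.79 ± 0.079. Nop10, the smallest protein of the particle, rose by 0.40 ± 0.091 (limma adjusted p = 5.82e-04). Within the particles, log2 fold changes ran from 0.68 to 1.07 for box C/D and from 0.40 to 1.09 for box H/ACA.

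**Figure D3:**
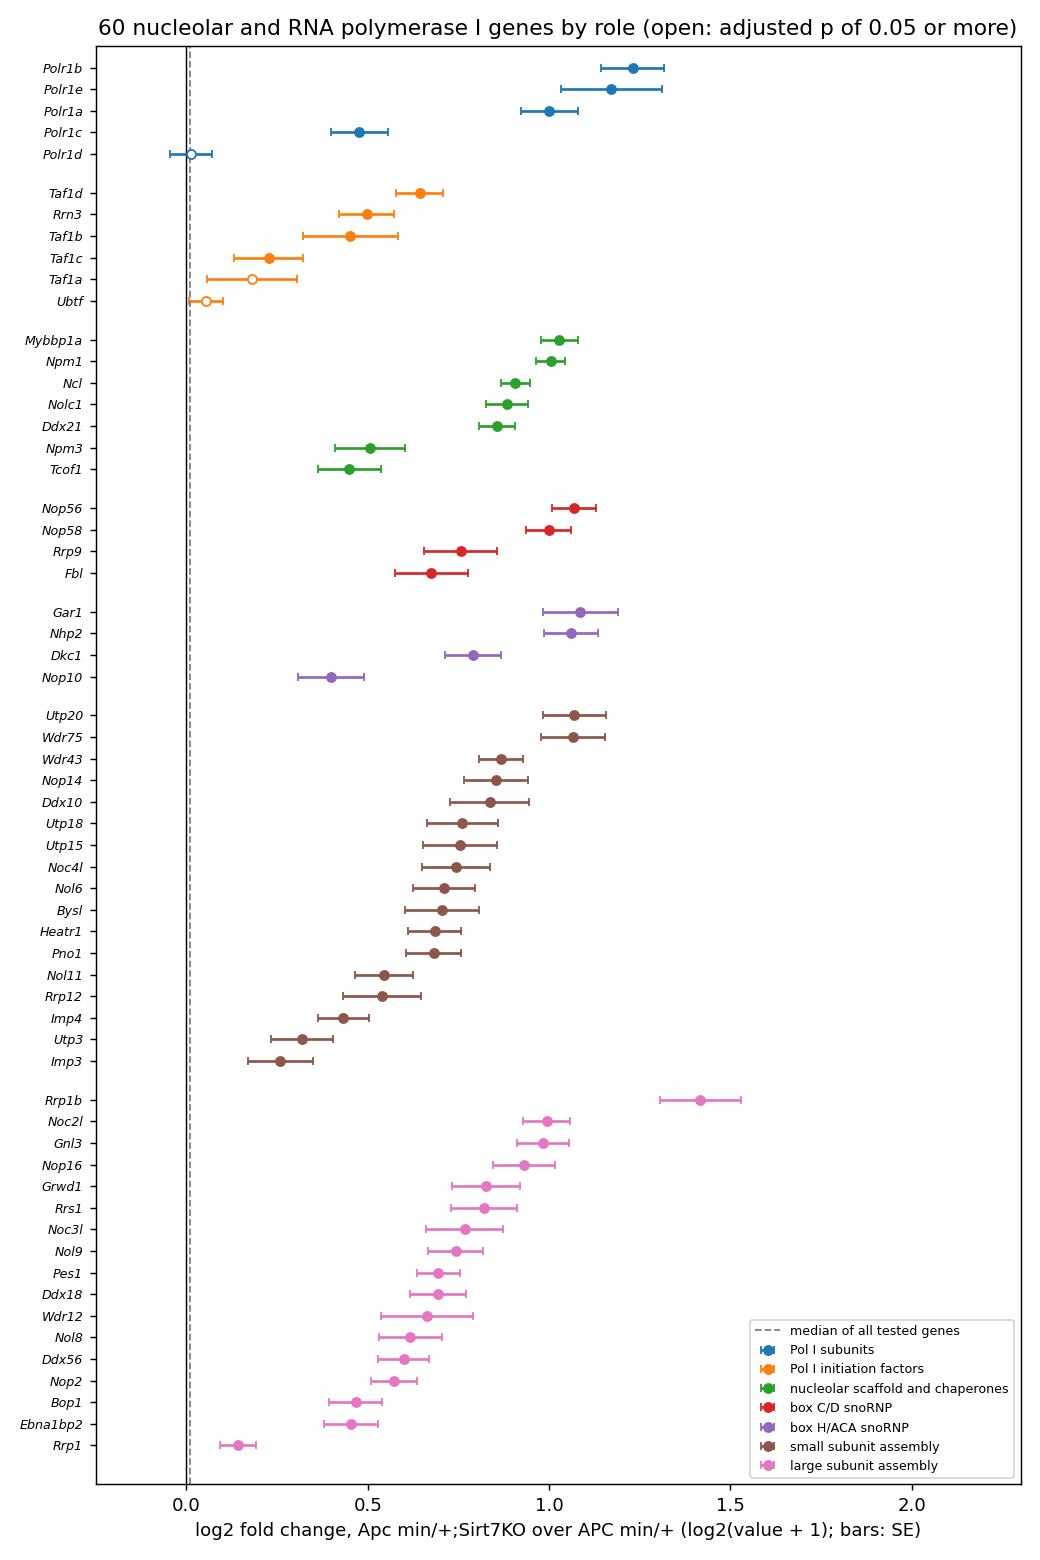
Log2 fold change, knockout over control on the log2(value + 1) scale, with SE, for each of the 60 genes by role; filled points passed in limma and open points did not. The dashed line marks the median of all tested genes (0.0097), and every role except the Pol I initiation factors has a median of at least 0.69.

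All 17 small subunit genes rose, with a median of 0.71 and a range of 0.26 to 1.07. Heatr1, Utp15, Wdr43, Wdr75 and Nol11 belong to the part of the processome that loads first and, in human cells, is also needed for Pol I transcription. Their log2 fold changes were 0.68, 0.75, 0.87, 1.07 and 0.54, and Wdr75 stood at 645, 719 and 636 in knockout libraries, against 325, 326 and 301 in controls (limma adjusted p = 3.15e-10). Utp20, a very large scaffold protein of the processome, reached 872, 879 and 728 in knockout libraries, against 393, 375 and 407 in controls (1.07 ± 0.086, limma adjusted p = 1.99e-10). Nop14, Ddx10, Utp18, Noc4l and Nol6 rose by 0.85, 0.84, 0.76, 0.74 and 0.71. Bysl, Pno1 and Rrp12, which act on later precursors of the small subunit, rose by 0.71, 0.68 and 0.54. Imp4 and Imp3, which pair the guide RNA of the processome with the precursor, and Utp3 rose by 0.43, 0.26 and 0.32. Imp3 was the smallest of these rises, at 484, 433 and 492 in knockout libraries and 388, 399.7 and 387 in controls (limma adjusted p = 0.0151). It did not pass under quantile normalization (0.11, limma adjusted p = 0.28) or without knockout library 1 or 3 (limma adjusted p = 0.053 and 0.065).

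All 17 large subunit genes rose as well, with a median of 0.69 and the widest range of any role. The extremes were 2 genes of similar name. Rrp1b, on chromosome 17 (32036100 to 32062865, plus strand, GRCm38), had the largest fold change of the 60 genes, with 603, 600.0 and 559.9 in knockout libraries and 221, 184 and 259.9 in controls (1.42 ± 0.11, limma adjusted p = 1.92e-10). Rrp1 had the smallest fold change among genes that passed, with 2313, 2375 and 2358 in knockout libraries and 2043, 2202 and 2143 in controls (0.14 ± 0.049, limma adjusted p = 0.0153). The call for Rrp1 was lost without control library 1 or knockout library 2 (limma adjusted p = 0.071 and 0.054). Per kilobase of exon, Rrp1 was the more abundant in both groups, at 704 normalised reads in knockout and 638 in control, and Rrp1b stood at 76.3 in knockout and 28.8 in control.

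Pes1, Bop1 and Wdr12 encode a stable trimer needed to process large subunit rRNA, and they rose by 0.69, 0.47 and 0.66 (limma adjusted p = 5.09e-10, 6.18e-06 and 9.15e-05). Gnl3 encodes nucleostemin, a GTP-binding protein abundant in stem and tumour cells, and stood at 1049, 1111 and 1015 in knockout libraries and 513, 526 and 567 in controls (0.98 ± 0.071, limma adjusted p = 3.78e-11). Noc2l rose, with 1793, 1820.1 and 1772 in knockout libraries and 808, 942 and 962 in controls (0.99 ± 0.065, limma adjusted p = 5.64e-12), but 20.9% of its exon length is shared with Samd11 on the opposite strand. Nop16, Grwd1, Rrs1, Noc3l, Nol9 and Ddx18 rose by 0.93, 0.83, 0.82, 0.77, 0.74 and 0.69. The RNA methyltransferase gene Nop2 and the genes Nol8, Ddx56 and Ebna1bp2 rose by 0.57, 0.62, 0.60 and 0.45. In all, 23 of the 60 genes share some exon bases with a gene on the opposite strand. Besides Noc2l and Taf1c, the largest such share was 9.4%, for Bysl with Ccnd3.

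Of the 6 genes whose products have been described as partners or substrates of Sirt7 (Polr1e, Ubtf, Fbl, Rrp9, Npm1 and Mybbp1a), 5 rose and Ubtf did not pass. Their median was 0.88. All 6 belong to the 60 genes, of which 57 rose with a median of 0.73, beside 31.6% of all tested genes that rose. Whether the 6 differ from the rest of the 60 was not tested. These are transcript levels only. Acetylation and rRNA synthesis were not measured here.

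Promoter sequence was compared because most of these genes moved together and because Myc binds the E-box CACGTG. Sequences are from RefSeq (GRCm38.p6) and cover 250 bases before an annotated start. Of the 60 genes, 53 matched by symbol, with 65 windows. CACGTG, which reads the same on both strands, was present in 7.69% of these windows, beside 7.8% of the windows of all tested genes and 6.02% of all 32851 windows. The ETS-type motif, searched on both strands as CCGGAAG or its complement CTTCCGG, was present in 20.0%, beside 11.7% of the windows of tested genes and 6.91% of all. CCAAT or its complement ATTGG was present in 30.8%, beside 34.7% of the windows of tested genes and 33.8% of all. The 5 genes with CACGTG had a median log2 fold change of 0.54, and the 48 without it a median of 0.76. The 12 genes with CCGGAAG had a median of 0.72, and the 41 without it a median of 0.74, with no test made. A match here is a string of letters and not a bound site.

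The 5 windows with CACGTG are shown, followed by the first window of Taf1a, a gene that did not pass, which holds the ETS-type motif on each strand. Capitals mark the E-box or, on either strand, the ETS-type motif, and each sequence runs 5′ to 3′ towards the start site on the gene's own strand.
Rrn3 (chr16:13780449-13780698, plus strand): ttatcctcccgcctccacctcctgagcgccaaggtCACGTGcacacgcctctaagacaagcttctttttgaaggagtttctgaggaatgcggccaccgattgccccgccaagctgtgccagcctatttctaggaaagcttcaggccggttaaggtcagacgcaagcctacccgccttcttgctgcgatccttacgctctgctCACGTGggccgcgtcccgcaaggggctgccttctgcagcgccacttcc
Nop2 (chr6:125131633-125131882, plus strand): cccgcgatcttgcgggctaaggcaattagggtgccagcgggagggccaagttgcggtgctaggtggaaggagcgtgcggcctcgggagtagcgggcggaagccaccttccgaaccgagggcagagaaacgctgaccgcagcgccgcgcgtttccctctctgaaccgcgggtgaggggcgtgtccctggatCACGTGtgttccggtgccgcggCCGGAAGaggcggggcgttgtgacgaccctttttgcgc
Utp18 (chr11:93885767-93886016, minus strand): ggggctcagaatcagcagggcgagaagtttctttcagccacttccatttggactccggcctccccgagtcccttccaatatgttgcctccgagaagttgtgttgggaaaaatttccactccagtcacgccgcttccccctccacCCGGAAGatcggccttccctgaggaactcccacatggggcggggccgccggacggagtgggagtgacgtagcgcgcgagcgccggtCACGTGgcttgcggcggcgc
Nol11 (chr11:107189382-107189631, minus strand): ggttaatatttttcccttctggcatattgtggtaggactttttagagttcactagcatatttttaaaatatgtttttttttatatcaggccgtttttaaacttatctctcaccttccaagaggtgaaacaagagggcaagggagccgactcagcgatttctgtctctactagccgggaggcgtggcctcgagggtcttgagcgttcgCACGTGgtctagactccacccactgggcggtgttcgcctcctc
Imp4 (chr1:34439579-34439828, plus strand): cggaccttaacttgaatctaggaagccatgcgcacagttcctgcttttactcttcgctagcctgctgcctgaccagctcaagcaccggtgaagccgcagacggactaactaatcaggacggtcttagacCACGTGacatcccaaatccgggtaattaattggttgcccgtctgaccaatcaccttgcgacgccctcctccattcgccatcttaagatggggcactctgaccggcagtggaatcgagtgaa
Taf1a (chr1:183388635-183388884, plus strand): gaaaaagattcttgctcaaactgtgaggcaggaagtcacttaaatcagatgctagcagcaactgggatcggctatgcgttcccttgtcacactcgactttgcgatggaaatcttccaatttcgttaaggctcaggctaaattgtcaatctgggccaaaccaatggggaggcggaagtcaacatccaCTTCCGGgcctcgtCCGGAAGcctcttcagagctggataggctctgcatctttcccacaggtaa
The first base of CACGTG lay at positions -215 and -48 from the start in Rrn3, and at -60 in Nop2, -20 in Utp18, -43 in Nol11 and -121 in Imp4. Nop2 and Utp18 also held the ETS-type motif. All 5 of these genes passed as higher, by 0.43 (Imp4) to 0.76 (Utp18) on the log2 scale.

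Beyond the 60 genes, 136 further genes of ribosome biogenesis were in the table, from lists made by role. Of these 105 rose, 4 fell and 27 did not pass, with a median log2 fold change of 0.50. Among other small subunit factors 34 of 43 rose and 0 fell in limma. They included the GTPase-like factor gene Tsr1 (1489 ± 86.5 in knockout and 662 ± 35.7 in control, 1.17 ± 0.067) and Cirh1a (1.17 ± 0.095), with Wdr3 and Nob1, the endonuclease that makes the last small subunit cut, each at 0.80. Among genes that assemble the modification particles 9 of 11 rose and 0 fell in limma, with Nhp2l1, Ruvbl1, Ruvbl2 and Naf1 higher by 0.60, 0.76, 0.60 and 1.10. Among exosome, RNase MRP and exonuclease genes 16 of 25 rose and 0 fell in limma, and the 4 with the smallest p were Xrn2, Pop1, Dis3 and Eri1 (0.53, 1.24, 0.78 and 0.63).

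Of the 47 other large subunit factors, 41 rose, 3 fell and 3 did not pass. The rises with the smallest p were Las1l, the endonuclease that cuts an internal spacer of the precursor (1488 ± 28.5 in knockout and 627 ± 26.5 in control, 1.25 ± 0.063), then Rsl1d1, Ftsj3 and Lyar (0.78, 0.71 and 0.98). The 3 that fell were Sbds, Eif6 and Eftud1. Eif6 is an anti-association factor carried by the new large subunit into the cytoplasm, and Sbds and the GTPase encoded by Eftud1 are known to release it there. Sbds stood at 2457, 2571 and 2526 in knockout libraries and 4244, 4186 and 4203 in controls (-0.74 ± 0.044, limma adjusted p = 1.01e-12). Eif6 stood at 4317, 4259 and 4539 in knockout libraries and 5679, 5731 and 6127 in controls (-0.42 ± 0.044, limma adjusted p = 1.96e-08). Eftud1 stood at 1559, 1636 and 1666 in knockout libraries and 1909, 1877 and 1795 in controls (-0.20 ± 0.053, limma adjusted p = 0.00234). For each of the 3 genes every knockout value lay below every control value, and the fall also passed under quantile normalization (limma adjusted p = 7.92e-11, 0.000251 and 0.0297). With Znrd1 they were the 4 genes of this list that fell.

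**Figure D4:**
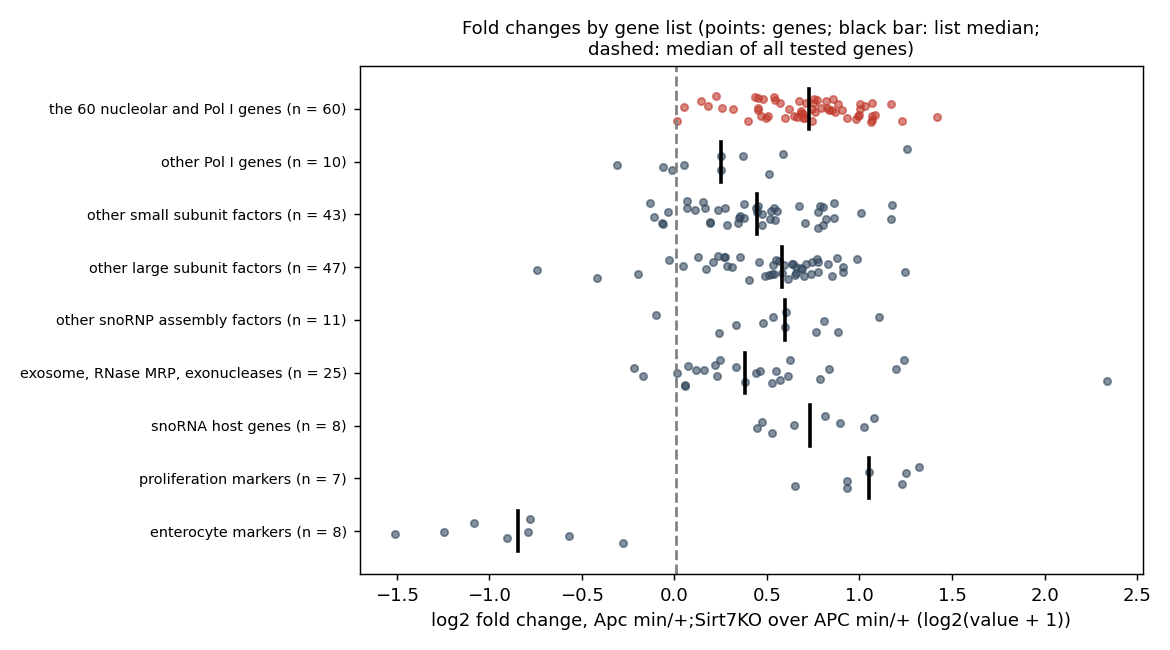
Log2 fold change of each gene (points) in the 60 nucleolar and Pol I genes, in 5 lists of further ribosome biogenesis genes, in snoRNA host genes and in 2 marker lists, with list medians (black bars) and the median of all tested genes (dashed). The 3 points below -0.1 among the other large subunit factors are Sbds, Eif6 and Eftud1, and the point above 2 is Rpp25.

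The highest fold change of the 136 genes, that of the RNase P and MRP protein gene Rpp25, rests on few reads: 45.9, 19.2 and 36.2 normalised reads in knockout libraries and 5.16, 2.14 and 13.1 in controls (2.34 ± 0.52, limma adjusted p = 4.85e-04). Host genes of small nucleolar RNAs (snoRNAs), which carry the guide RNAs of the modification particles in their introns, also rose, 8 of the 8 in the table, with a median of 0.73. Snhg5 averaged 475 ± 47.0 in knockout and 235 ± 46.4 in control, and Gas5 1654 ± 129 in knockout and 1190.5 ± 6.30 in control (1.02 ± 0.12 and 0.47 ± 0.061). Of the 60 genes, 7 are hosts themselves in the GENCODE annotation, with 27 snoRNA genes inside them on the same strand. Taf1d holds 8, Nop56 holds 5 and Nop58 holds 4. Cytosolic ribosomal protein genes, taken by symbol, rose in 66 of 74 cases with 1 lower and a median of 0.32, and subunits of RNA polymerases II and III rose in 16 of 24 with 2 lower and a median of 0.32. Whether these medians differ from that of the 60 genes was not tested.

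Myc, the regulator named above, stood at 1132, 1010.4 and 1101 in knockout libraries and 481, 478 and 391 in controls (1.27 ± 0.084, limma adjusted p = 8.07e-12). Its relative Mycn averaged 112 ± 16.0 in knockout and 18.9 ± 6.31 in control (2.56 ± 0.28). Max is the partner with which Myc and Mycn bind DNA. It fell to 5041 ± 127 in knockout, against 8901 ± 366 in control (-0.82 ± 0.042, limma adjusted p = 6.94e-14). Whether Myc, Mycn or Max had a part in the higher level of the nucleolar and Pol I genes was not tested.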

How the data were processed

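The members and the other gene lists were chosen with earlier results of these data known. RNA was extracted with Trizol and sequenced from TruSeq libraries, per the labels' protocols. The submitters' processing notes name mm10, TopHat2 2.1.1, HTSeq 0.6.1p1 and DESeq2, and give no roles or strand setting. The deposited signal holds read counts, each divided by its library's size factor and not scaled by length. Per the file headers, the authors also deposited mean signal, log2 fold change with SE, a Wald score, and unadjusted and adjusted p-values. All values (100% per column, tolerance 0.01) were whole multiples of 1 step, so reads were recovered. In 2 columns the step was close to 1. In 23 rows a date replaced the symbol.

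Values were tested with limma 3.58.1 (R 4.3.3; trend and robust, genotype only) as log2(value + 1), which understates folds of low genes. The fit was tested on simulated reads with changes planted in a small set of genes and with each library's own size factor. It therefore did not test the normalization or changes as wide as those seen here. Alternatives were edgeR 4.0.16, DESeq2 1.42.0, TMM, quantile normalization, no filter or one at 50, pseudocounts of 0.5 and 10, non-robust limma, the replicate block, and leaving out each library. All 60 members may be named, then Sirt7, Mki67, Top2a, Myc and Lgr5, and up to 4 genes per further list and direction by smallest p. Other Pol I genes past that number, Mycn, Max, Rpp25 and the genes that overlap Taf1c, Noc2l and Bysl fall outside this rule and were named after their values or overlaps were seen. Exon lengths, positions and snoRNAs are from GENCODE vM21 (GRCm38). Intervals at 95% are the estimate ± 1.96 SE.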

Additional observations from a re-analysis of the deposited data

How the results depend on the processing

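Of the 60 genes, 53 passed as higher under all 16 alternatives, and the count of higher genes stayed between 55 and 57, with 0 lower in every alternative. Over all tested genes, 5248 passed as higher as reported, and 4751 (quantile normalization) to 5469 (no filter, with more genes tested) under the alternatives. The share of all tested genes that passed as higher under every alternative was not computed. Of 960 gene-by-alternative values, 943 kept direction and side of the threshold, 13 no longer passed, 1 newly passed and 3 changed sign. The changes of sign were Polr1d without control library 2 (-0.0031) or knockout library 3 (-0.028; range without 1 library -0.028 to 0.042) and Taf1a under quantile normalization (-0.001), none of which passed. Among other named genes, Tbp changed sign under TMM (0.0049) and without control library 1 (range -0.066 to 0.048), and Polr2h under quantile normalization (-0.091) and without control library 2 (range -0.044 to 0.17). The median of the 60 genes was 0.726 as reported, 0.739 with edgeR, 0.745 with TMM, 0.593 with quantile normalization and 0.715 with a pseudocount of 10. Without 1 library at a time it ran from 0.696 to 0.737. The median of the 136 further genes was 0.501 as reported, 0.508 with edgeR, 0.519 with TMM, 0.363 with quantile normalization, 0.49 with the filter at 50, 0.475 with a pseudocount of 10 and 0.473 to 0.509 without 1 library. Under quantile normalization 90 of these 136 rose and 10 fell, in place of 105 and 4. The median of all tested genes moved by at most 0.057 (log2) under any alternative. The causes were not tested. The replicate numbers did not pair the libraries: deviations of same-numbered libraries correlated at 0.00032, 0.036 and -0.0063. With the replicate block, 57 of the 60 genes passed as higher and the median stayed at 0.73, while Polr2l no longer passed (limma adjusted p = 0.051). Polr2l also did not pass with DESeq2 (adjusted p = 0.071) and without any of 4 single libraries (limma adjusted p = 0.070 to 0.13). Depth limits the genes with few reads, such as Rpp25, which held at most 45.9 normalised reads in any library.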
